A study of Mus musculus with 16 samples.

Results

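Dbp, Tef and Hlf encode the PAR bZIP transcription factors, and Nfil3 encodes E4BP4, a basic leucine zipper repressor that competes with them for DNA. The 4 genes were taken by name: every probe set whose only gene symbol is one of theirs was used, which gave 5 probe sets, 2 of them for Tef, out of 23521 probe sets with 1 gene symbol, and 4 genes out of 22180. They were followed across the myocardium of 16 C57Bl/6J mice in 4 groups of 4: Clock delta 19/delta 19 mice on a high-fat diet (HFD), the same mutants on SC (the labels' name for the other diet), wild-type (WT) mice on HFD and WT mice on SC. All mice had eaten their diet for 24 weeks, were 32 weeks old and gave their hearts 7 hours after lights on, and each heart was read on 1 Affymetrix array from 500 ng of total RNA. The design asks what the Clock mutation does on each diet, what HFD does in each genotype, and whether the 2 effects depend on each other.

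PAR bZIP factors bind a short element, the D-box, and activate genes that carry it, while E4BP4 binds the same element and represses. In the circadian clock Dbp, and in part Tef and Hlf, are switched on by the CLOCK and BMAL1 proteins through E-boxes and peak together, and Nfil3 is held down by the REV-ERB repressors through another element, the RORE, so that E4BP4 and the PAR factors alternate over the day in many tissues. The delta 19 allele of Clock yields a protein that pairs with BMAL1 but activates poorly, in every cell of the mouse and not in the heart alone. In liver the PAR factors drive detoxification genes, among them carboxylesterases and glutathione transferases, and mice without all 3 PAR genes lose much of that programme.

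Each deposited value is a log2 difference of 1 probe set from the middle of its 16 values, so a gene can be followed from heart to heart, while its abundance, and its level against another gene, cannot be read. No source used here names the base or the sign of the logarithm. Base 2, with positive values for higher expression, was assumed. The array medians lay between -0.00154 and 0.00281 and the array SDs between 0.111 and 0.159, and every array correlated more, on average, with its own group than with the other groups. In whole myocardium, fewer cells of a type and less RNA per cell cannot be told apart. The tests set differences against the spread between hearts and treat the hearts as independent. The labels do not say whether mice shared a litter or cage, so that independence could not be checked. A single time of day was sampled, so a shifted rhythm and a flattened rhythm cannot be told apart.

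One heart, WT SC replicate 4, stood apart in Dbp, the first Tef probe set and Hlf before any comparison was made. Its Dbp value of 0.37 was the lowest of the 8 WT hearts, where the other 7 lay between 1.71 and 2.45. Its values of the first Tef probe set (-0.10) and of Hlf (-0.13) were also the lowest of the WT hearts. Arntl, which encodes BMAL1, was at 0.54 there and between -2.12 and -0.32 in the other 7 WT hearts. Nfil3 did not set this heart apart: it was at -0.11 there, where the 8 WT hearts ran from -0.72 to -0.02. The comparisons of the 4 members with the WT SC group are therefore given with and without this heart, which was singled out after its values were seen. Its values of Dbp, the first Tef probe set, Hlf and Arntl lay toward those of the Clock hearts. Leaving it out therefore widens the SC genotype differences of these genes by construction. A pass gained, or a p made smaller, in that way is no separate support. Whether its label and its collection time are as stated was not tested.

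The promoter windows of the 4 genes are shown because their regulation through E-boxes and ROREs is the background to the comparisons. They are RefSeq sequences of the mouse build GRCm38.p6, running from 250 bases before to 50 bases after the annotated start, 5′ to 3′ on the gene's strand, and all 4 genes had at least 1 window. Capitals mark a palindromic E-box (CACGTG) in both windows of Tef, at positions -127 and -138 from the start, and the RORE core (TAGGTCA, read on the other strand as TGACCTA) in Nfil3 at position -12.
Dbp, chr7:45704997-45705296, plus strand: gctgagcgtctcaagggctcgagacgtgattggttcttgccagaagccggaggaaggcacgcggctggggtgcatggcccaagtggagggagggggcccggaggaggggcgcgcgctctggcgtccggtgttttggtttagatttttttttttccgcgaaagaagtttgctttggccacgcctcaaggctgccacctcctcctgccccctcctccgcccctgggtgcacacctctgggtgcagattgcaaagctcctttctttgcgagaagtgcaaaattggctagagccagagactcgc
Tef, first start, chr15:81802423-81802722, plus strand: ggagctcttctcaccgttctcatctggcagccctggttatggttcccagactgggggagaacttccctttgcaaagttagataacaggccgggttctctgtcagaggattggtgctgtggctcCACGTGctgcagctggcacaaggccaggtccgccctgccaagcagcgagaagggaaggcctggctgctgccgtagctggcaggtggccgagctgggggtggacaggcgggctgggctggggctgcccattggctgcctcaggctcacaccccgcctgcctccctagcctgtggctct
Tef, second start, chr15:81811164-81811463, plus strand: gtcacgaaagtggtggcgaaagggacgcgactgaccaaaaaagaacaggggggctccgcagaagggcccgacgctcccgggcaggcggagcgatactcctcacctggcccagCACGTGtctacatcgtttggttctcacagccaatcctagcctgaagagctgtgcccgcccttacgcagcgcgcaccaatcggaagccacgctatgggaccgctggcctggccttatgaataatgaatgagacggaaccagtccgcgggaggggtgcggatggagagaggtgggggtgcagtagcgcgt
Hlf, chr11:90390868-90391167, minus strand: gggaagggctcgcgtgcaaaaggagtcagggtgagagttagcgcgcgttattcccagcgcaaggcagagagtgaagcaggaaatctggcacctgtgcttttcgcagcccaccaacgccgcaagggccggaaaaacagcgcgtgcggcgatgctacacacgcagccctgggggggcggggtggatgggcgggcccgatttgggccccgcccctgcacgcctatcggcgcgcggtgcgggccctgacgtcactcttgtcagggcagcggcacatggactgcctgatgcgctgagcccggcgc
Nfil3, chr13:52980990-52981289, minus strand: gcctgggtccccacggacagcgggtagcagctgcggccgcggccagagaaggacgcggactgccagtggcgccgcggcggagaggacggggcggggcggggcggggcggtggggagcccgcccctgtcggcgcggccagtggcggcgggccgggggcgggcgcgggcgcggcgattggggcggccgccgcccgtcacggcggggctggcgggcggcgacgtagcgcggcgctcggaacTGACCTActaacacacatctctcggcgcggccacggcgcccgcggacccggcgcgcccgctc
On both strands, CACGTG was found in 7.15% of 32851 promoter windows of the same length, and the RORE core, which was searched after the longer form had given no match, in 2.61%. The letters CACGTT (4.68% of all windows), the D-box forms TTATGTAA and TTACGTAA (1.06% together) and the longer form of the RORE (0.219%) were in none of the 5 windows. A match describes the letters of the window, and these windows leave out elements farther from the start or inside the gene.

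Dbp, the PAR factor gene that is the standard readout of CLOCK and BMAL1 activity, was far lower in mutant hearts on both diets. It was at -0.52, -0.40, -0.37 and -0.52 in Clock HFD hearts, against 1.86, 2.36, 2.45 and 2.42 in WT HFD hearts. It was at -0.58, -0.39, -0.62 and -0.37 in Clock SC hearts, against 1.71, 1.89, 2.29 and 0.37 in WT SC hearts. All 8 Clock hearts lay below all 8 WT hearts, which was true of 0.311% of all genes. On HFD Dbp fell by 2.73 ± 0.27 (log2 difference ± SE, n = 4 each, 6.62-fold, limma adjusted p = 5.47e-05). On SC it fell by 2.05 ± 0.27 (4.14-fold, limma adjusted p = 0.00154), or by 2.45 without WT SC replicate 4 (adjusted p = 1.72e-07). In each of these comparisons its difference was the lowest of all 22180 genes. In a fit of the 8 SC arrays alone the difference had adjusted p = 0.0600.

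Tef, which encodes thyrotroph embryonic factor, was read by 2 probe sets that did not move alike. Probe set 17313376 was at 0.04, -0.10, -0.09 and -0.05 in Clock HFD hearts, against 0.50, 0.71, 0.66 and 0.90 in WT HFD hearts. It was at -0.19, -0.20, -0.19 and -0.04 in Clock SC hearts, against 0.25, 0.35, 0.56 and -0.10 in WT SC hearts. The groups did not overlap on HFD, and on SC only WT SC replicate 4 reached into the range of the Clock hearts. Of all genes, 8.89% were without overlap on HFD, and the share over probe sets was not computed. On HFD the probe set fell by 0.74 ± 0.11 (limma adjusted p = 0.00222 over all 34351 probe sets, of which 1.40% were called). On SC its difference of -0.42 ± 0.11 did not pass (adjusted p = 0.144, with 0.349% of probe sets called), and without WT SC replicate 4 it was -0.54 and passed (adjusted p = 0.0120). That heart was singled out partly by its low value of this probe set, so the pass is no separate support. Averaged over the diets the probe set fell by 0.58 ± 0.08 (adjusted p = 0.000534, with 2.84% of probe sets called).

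The other Tef probe set, 17319524, ran from 0.00 to 0.18 in Clock HFD hearts, from -0.13 to 0.23 in Clock SC hearts, from -0.02 to 0.12 in WT HFD hearts and from -0.21 to 0.04 in WT SC hearts. These ranges overlapped between all 4 groups, and its differences between Clock and WT hearts were 0.05 ± 0.07 on HFD (limma adjusted p = 0.886) and 0.11 ± 0.07 on SC (adjusted p = 0.761). The 95% intervals ran from -0.11 to 0.20 on HFD and from -0.05 to 0.26 on SC, so the differences of the first probe set lie outside both. Tef lies on the plus strand. Among the probe sets with the nearest numbers, 15 of 15 with a known strand are on the plus strand for probe set 17313376, and 1 of 16 for probe set 17319524. Which strand and which part of the transcript each Tef probe set reads was not tested. The value used for the gene is the mean of the pair, and it shrinks the differences of the first probe set.

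As that mean, Tef was lower in Clock than in WT hearts on HFD by log2 -0.35 ± 0.07 (limma adjusted p = 0.0167), with values of -0.05 to 0.05 in Clock HFD hearts and 0.25 to 0.44 in WT HFD hearts. The groups did not overlap, as in 8.89% of all genes. On SC Tef differed by -0.16 ± 0.07, which missed the threshold (adjusted p = 0.478), as it did without WT SC replicate 4 (-0.23, adjusted p = 0.151). The call on HFD was lost without Clock HFD replicate 2 (adjusted p = 0.0627), WT HFD replicate 2 (0.0535) or WT HFD replicate 4 (0.0532).

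Hlf, which encodes hepatic leukemia factor, followed the same direction at a smaller size than Dbp. It was at -0.21, 0.09, -0.16 and -0.12 in Clock HFD hearts, against 0.29, 0.23, 0.61 and 0.47 in WT HFD hearts. It was at -0.13, -0.20, -0.12 and -0.02 in Clock SC hearts, against 0.13, 0.02, 0.45 and -0.13 in WT SC hearts. The groups were apart on HFD, as in 8.89% of all genes, and overlapped on SC through WT SC replicate 4. On HFD Hlf fell by 0.50 ± 0.11 (limma adjusted p = 0.0208), a call that was lost without any one of Clock HFD replicates 1, 3 and 4 and WT HFD replicates 3 and 4 (adjusted p up to 0.0731). On SC Hlf differed by -0.23 ± 0.11, which missed the threshold (adjusted p = 0.483), as it did without WT SC replicate 4 (-0.32, adjusted p = 0.292).

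Nfil3, the gene of the rival repressor, moved the other way. It was at 0.17, 0.04, 0.51 and 0.02 in Clock HFD hearts, against -0.72, -0.52, -0.27 and -0.32 in WT HFD hearts. It was at 0.38, 0.27, 0.03 and 0.50 in Clock SC hearts, against -0.02, -0.43, -0.43 and -0.11 in WT SC hearts. All 8 Clock hearts lay above all 8 WT hearts, which was true of 0.419% of all genes. On HFD Nfil3 rose by 0.64 ± 0.13 (limma adjusted p = 0.0176), the 39th highest difference of all genes. On SC the difference of 0.54 ± 0.13, the 19th highest, did not pass over all genes (limma adjusted p = 0.0975), or without WT SC replicate 4 (0.59, adjusted p = 0.114). The exact permutation test of the 4 Clock SC against the 4 WT SC hearts gave the smallest two-sided p that 4 against 4 allow, 0.0286, unadjusted. Any gene whose 2 groups do not overlap reaches that value, and 4.95% of all genes had such groups on SC. The HFD call was lost without Clock HFD replicate 3 (adjusted p = 0.0616), WT HFD replicate 1 (0.0591) or WT HFD replicate 2 (0.0534).

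**Figure D1:**
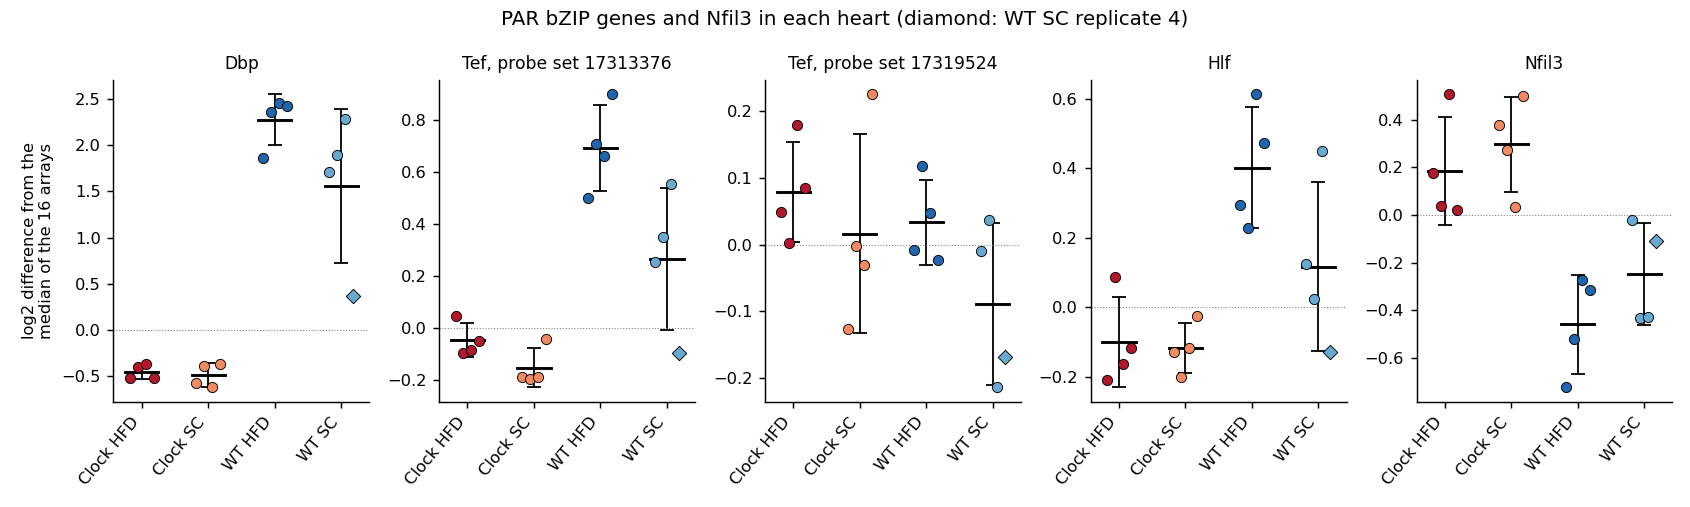
Value of each member in each heart (log2 difference from the gene's median over the 16 arrays, vertical axis, with its own scale in each panel), by group, with the Tef probe sets apart. Bars show the mean and SD of 4 hearts, and the diamond is WT SC replicate 4. Dbp is below -0.3 in all 8 Clock hearts and at or above 0.37 in all 8 WT hearts, and Nfil3 shows the opposite order at a smaller size.

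Among all genes, 1.90% passed between Clock and WT hearts on HFD (1.13% higher and 0.771% lower), and the 4 members were all among them. The members' groups did not overlap there, which held for 8.89% of all genes. On SC 0.491% of all genes passed, and of the members only Dbp did. There Dbp and Nfil3 were without overlap, as were 4.95% of all genes. Averaged over the diets, all 4 members passed, where 3.88% of all genes did. The average difference was -2.39 ± 0.19 for Dbp (limma adjusted p = 2.03e-06), -0.25 ± 0.05 for Tef (0.00827), -0.37 ± 0.08 for Hlf (0.0100) and 0.59 ± 0.09 for Nfil3 (0.00142). These averages kept adjusted p under 0.05 whichever single array was left out.

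HFD itself gave no passing difference in any member. In Clock hearts, where 0.0902% of all genes passed, the differences between HFD and SC were 0.04 ± 0.27 for Dbp, 0.09 ± 0.07 for Tef, 0.02 ± 0.11 for Hlf and -0.11 ± 0.13 for Nfil3, with limma adjusted p between 0.836 and 0.992. The errors rest on 1 spread per gene, shared by all 4 groups. For Dbp the SD within groups was 0.109 in Clock and 0.621 in WT hearts, so its error in Clock hearts comes mostly from WT hearts. In WT hearts, where 0.352% of all genes passed, the differences between HFD and SC were larger for the PAR genes. The difference was 0.71 ± 0.27 for Dbp (limma adjusted p = 0.323), 0.27 ± 0.07 for Tef (0.114), 0.28 ± 0.11 for Hlf (0.309) and -0.21 ± 0.13 for Nfil3 (0.637). The 4 WT HFD hearts lay above the 4 WT SC hearts in Tef, as groups without overlap did in 5.30% of all genes, and the exact permutation test of that difference gave p = 0.0286, unadjusted, the smallest it can give. The first Tef probe set differed by 0.43 ± 0.11 (limma adjusted p = 0.139, with 0.157% of probe sets called).

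WT SC replicate 4 carried part of these diet differences. Without it the WT difference of Dbp was 0.31 (limma adjusted p = 0.472), that of Tef 0.20 (0.231), that of Hlf 0.20 (0.568) and that of Nfil3 -0.16 (0.798). The diet difference of Dbp was thus 0.71 with that heart and 0.31 without it, and passed in neither case. Averaged over the genotypes, where 1.54% of all genes passed, the diet differences were 0.37 for Dbp (limma adjusted p = 0.437), 0.18 for Tef (0.0885), 0.15 for Hlf (0.417) and -0.16 for Nfil3 (0.510). The average for Dbp was 0.17 without WT SC replicate 4.

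The genotype differences on HFD were more negative for each PAR gene than those on SC, and this was tested as an interaction. The interaction was -0.68 ± 0.39 for Dbp, -0.19 ± 0.10 for Tef and -0.27 ± 0.15 for Hlf, each with limma adjusted p = 0.982, and 0.10 ± 0.19 for Nfil3 (0.999). The 95% interval for Dbp ran from -1.49 to 0.14. Without WT SC replicate 4 the interaction was -0.28 for Dbp, -0.12 for Tef, -0.18 for Hlf and 0.05 for Nfil3. No gene of the table (0%) passed the interaction test by limma, with or without its robust setting, and 1122 genes (5.06%) had an unadjusted p under 0.05, where 5% would be reached with no interaction.

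**Figure D2:**
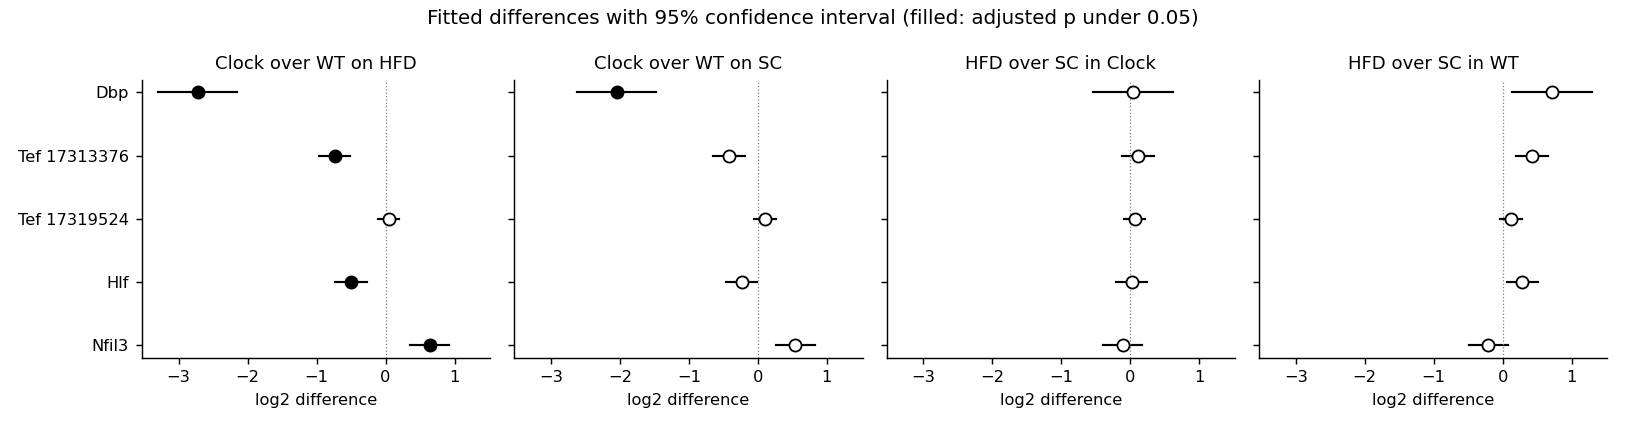
Fitted log2 differences (horizontal axis) with 95% confidence intervals for Dbp, Hlf, Nfil3 and each Tef probe set, in 4 comparisons; the mean of the Tef probe sets is not plotted. Filled points passed at adjusted p under 0.05: Dbp, the first Tef probe set, Hlf and Nfil3 between Clock and WT hearts on HFD, and Dbp on SC. The second Tef probe set lies between 0.05 and 0.12 in the 4 panels.

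In order of the group means, the 3 PAR genes, with Tef as the mean of its probe sets, ran in one sequence and Nfil3 in its reverse. Tef probe set 17319524 alone ran otherwise. It averaged -0.09 in WT SC, 0.02 in Clock SC, 0.03 in WT HFD and 0.08 in Clock HFD hearts. Dbp averaged -0.49 ± 0.13 in Clock SC hearts, -0.45 ± 0.083 in Clock HFD hearts, 1.56 ± 0.83 in WT SC hearts and 2.27 ± 0.28 in WT HFD hearts (SD, n = 4 each). Nfil3 averaged 0.30 ± 0.20 in Clock SC hearts, 0.18 ± 0.23 in Clock HFD hearts, -0.25 ± 0.21 in WT SC hearts and -0.46 ± 0.21 in WT HFD hearts (SD, n = 4 each). Of the neighbours in these sequences only Clock HFD and WT SC hearts in Dbp differed past the threshold (-2.01, limma adjusted p = 0.000821, in a comparison that called 4.02% of all genes). The same pair of groups gave -0.07 for Tef (0.681), -0.22 for Hlf (0.313) and 0.43 for Nfil3 (0.0831). When WT SC replicate 4 was left out, Dbp differed by -2.41 (limma adjusted p = 1.77e-07), Tef by -0.15 (0.264), Hlf by -0.30 (0.170) and Nfil3 by 0.48 (0.103), and the genes called fell in number to 532 (2.40%), against 891 with it. The farthest groups, Clock SC and WT HFD, differed in all 4 members, where 2.26% of all genes did. There Dbp differed by -2.76 (limma adjusted p = 3.88e-05), Tef by -0.43 (0.00273), Hlf by -0.52 (0.0152) and Nfil3 by 0.75 (0.00491). The call of Hlf was lost without Clock SC replicate 2 (0.0515) or WT HFD replicate 3 (0.0512).

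Dbp varied over a wider range in WT than in Clock hearts. Its SD within groups was 0.109 over the Clock hearts and 0.621 over the WT hearts, a ratio of 5.69, and in WT SC hearts without replicate 4 the SD was 0.295. For the first Tef probe set the SDs were 0.0696 in Clock and 0.225 in WT hearts, and for Hlf 0.105 in Clock and 0.212 in WT hearts. For Nfil3 they were alike, at 0.212 in Clock and 0.211 in WT hearts. No test of the spread was made.

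Within the 8 WT hearts Dbp, Hlf and the first Tef probe set varied together. Dbp and the first Tef probe set correlated at r = 0.927 (exact permutation p = 0.000322, 0.00580 after Benjamini-Hochberg adjustment over the 18 relations computed) and rho = 0.905 (exact p = 0.00456, adjusted 0.0821). Without WT SC replicates 1 and 4, the hearts farthest from the median of Dbp, r was 0.816, and for deviations from the diet means it was 0.924. Dbp and Hlf correlated at r = 0.824 (exact permutation p = 0.00409, adjusted 0.0246) and rho = 0.833 (exact p = 0.0154, adjusted 0.0923), with r = 0.734 without the same hearts. Hlf and the first Tef probe set correlated at r = 0.830 (exact permutation p = 0.00982, adjusted 0.0442) and rho = 0.786 (exact p = 0.0279, adjusted 0.126), with r = 0.748 without WT HFD replicate 3 and WT SC replicate 4. With the mean of both Tef probe sets in its place, Dbp and Tef correlated at r = 0.912 (exact permutation p = 0.00382, adjusted 0.0246), with r = 0.669 without WT SC replicates 1 and 4. Tef and Hlf then correlated at r = 0.730 (exact permutation p = 0.0357, adjusted 0.129) and rho = 0.667 (exact p = 0.0831, adjusted 0.214), with r = 0.387 without WT HFD replicate 4 and WT SC replicate 4, so this relation did not pass the adjustment and was lower without those hearts. For deviations from the diet means, r was 0.737 for Dbp and Hlf and 0.708 for Hlf and the first Tef probe set. With the mean of both Tef probe sets it was 0.932 with Dbp and 0.509 with Hlf. The exact tests permuted all 8 hearts of a genotype across both diets, so their p-values take in the diet difference. None was run on the deviations. The rank correlations did not pass the adjustment.

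No relation of Nfil3 with a PAR gene passed within a genotype. In WT hearts Dbp and Nfil3 gave r = -0.428 (exact permutation p = 0.303, adjusted 0.545) and rho = -0.214 (exact p = 0.619, adjusted 0.857), and without WT SC replicates 1 and 4 r was 0.711, so its sign rested on those hearts. In Clock hearts no relation among the members passed the adjustment. There Dbp and the first Tef probe set gave r = 0.191 (exact permutation p = 0.645) and rho = 0.238 (exact p = 0.582), and Dbp and Nfil3 gave r = 0.499 (exact permutation p = 0.200) and rho = 0.690 (exact p = 0.0694). Whether the relations differ between the genotypes was not tested.

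**Figure D3:**
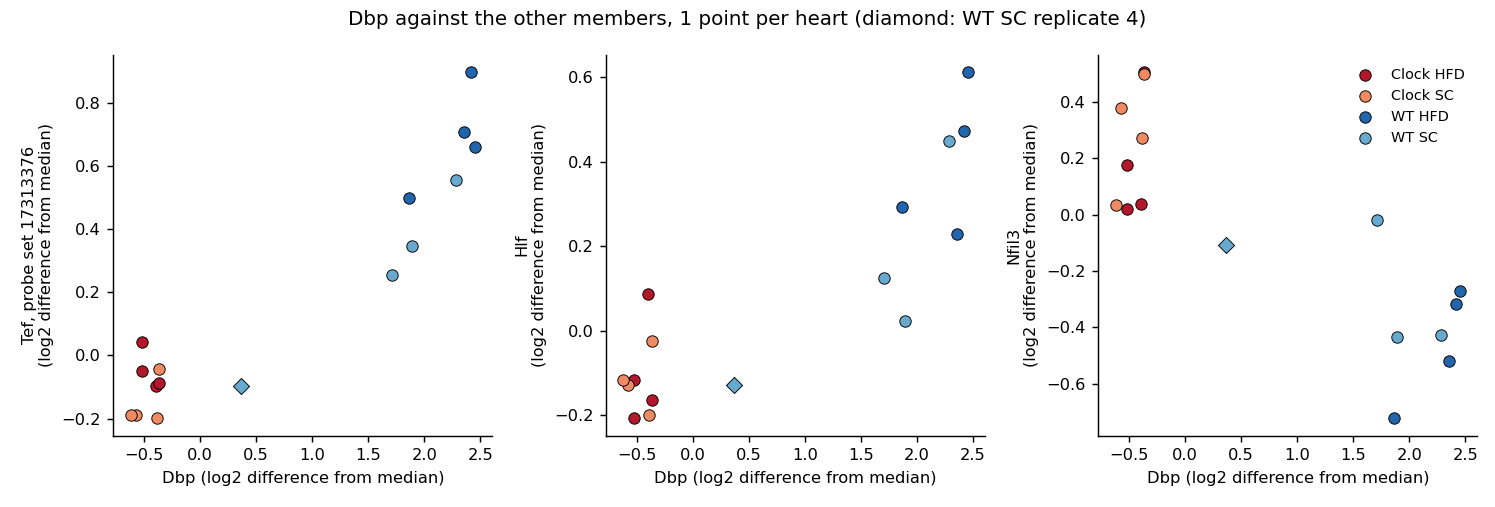
The first Tef probe set, Hlf and Nfil3 (vertical axes) against Dbp (horizontal axis), each as log2 difference from the median of the 16 arrays, with 1 point per heart coloured by group. Within the WT hearts Tef and Hlf run with Dbp (r = 0.927 and 0.824), and the Clock hearts form a tight cluster at low Dbp. The diamond, WT SC replicate 4, lies between the genotypes in Dbp. It is within the range of the Clock hearts in the first Tef probe set and Hlf, and among the WT hearts in Nfil3.

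Over the 16 arrays, the genes most like each member were found by Pearson correlation, which includes the genotype difference. Those most like Dbp were Ces1d (r = 0.990), Nr1d2 (0.985), Fdft1 (0.983), Usp2 (0.979) and Coq10b (0.967), and the most opposite were Stk24 (-0.934), Ddah1 (-0.932) and Plac9a (-0.912). For deviations from the group means the first 5 ran from 0.795 to 0.932 and the last 3 from -0.438 to 0.0812. WT SC replicate 4 was the lowest WT heart in Dbp (0.37), Ces1d (0.36) and Nr1d2 (0.09), so it weighs on these values. The likeness of the members was not computed without that heart. Ces1d is a carboxylesterase, Nr1d2 encodes REV-ERB beta, and Fdft1 is the squalene synthase gene. Those most like Tef were Npc1 (0.921), Tcap (0.912), Wee1 (0.910), Gpcpd1 (0.909) and Rhobtb1 (0.909), and the most opposite were Arntl (-0.944), Ckap4 (-0.943) and Clock (-0.917), with 0.583 to 0.923 and -0.791 to -0.661 for the deviations. Wee1 is a cell cycle kinase gene and Tcap encodes a sarcomere protein.

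Hlf was most like Per3 (0.904), Gpat3 (0.896), Creg1 (0.890), Mid1ip1 (0.887) and Sorcs2 (0.887), and most opposite to Clock (-0.922), Arntl (-0.909) and Elf1 (-0.891), with 0.643 to 0.696 and -0.777 to -0.696 for the deviations. Nfil3 was most like Mal (0.888), Fam220a (0.888), Plau (0.885), Atf4 (0.865) and Sash1 (0.860), and most opposite to Per3 (-0.866), Mreg (-0.864) and H2az2 (-0.863), with 0.401 to 0.659 and -0.581 to -0.379 for the deviations. Plau encodes urokinase and Atf4 a stress transcription factor.

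The genes that switch the members on and off were read from lists of clock regulators. Of the 3 E-box activators, which drive Dbp, Tef and Hlf, 2 rose in Clock hearts on HFD: Arntl by 1.92 ± 0.26 (limma adjusted p = 0.000746) and Clock by 0.42 ± 0.08 (0.00965), while Npas2 differed by 0.28 ± 0.16 (0.467). In that comparison 1.13% of all genes were higher. Arntl was at -0.05 to 0.09 in Clock HFD hearts, against -2.12 to -1.54 in WT HFD hearts. On SC none of the 3 passed, Arntl differing by 0.72 ± 0.26 (0.309). Without WT SC replicate 4, which was singled out partly by its Arntl value, the difference of Arntl on SC was 1.05 and passed (0.0149). Which part of the Clock transcript its probe set reads was not tested, so its value is no check of the genotype. Between the diets in WT hearts Arntl, 1 of the 3, fell by 1.43 on HFD (adjusted p = 0.0245, where 0.167% of all genes were lower), or by 1.10 without WT SC replicate 4 (0.0293). Leaving out WT SC replicate 1 or any one of WT HFD replicates 2, 3 and 4 ended that call of Arntl (adjusted p up to 0.0720).

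The E-box repressors close the loop on the same activators. On HFD 4 of 7 measured fell in Clock hearts: Ciart by 1.35 ± 0.25 (limma adjusted p = 0.00892), Per3 by 1.34 ± 0.15 (0.000115), Bhlhe41 by 0.88 ± 0.15 (0.00581) and Cry2 by 0.64 ± 0.12 (0.0115). Of all genes, 0.771% were lower in that comparison. Per1, Cry1 and Bhlhe40 did not pass, at -0.18, 0.04 and -0.38. On SC only Per3 fell, by 0.79 ± 0.15 (0.0231, where 0.252% of all genes were lower and 0.239% higher). Without WT SC replicate 4, Ciart (-1.39, 0.000254) and Bhlhe41 (-0.72, 0.0206) passed on SC beside it. That heart was the lowest WT heart in both (-0.17 and -0.23), so these passes rest on its choice. The call of Per3 on SC was lost without Clock SC replicate 1 or 2 or WT SC replicate 1, 2 or 3 (adjusted p up to 0.0927). Per2 was not analysed here.

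Of the 4 measured RORE regulators, which act on Nfil3, the 2 REV-ERB genes were lower in Clock hearts on both diets. Nr1d1 was at -0.39, -0.67, -0.61 and -0.49 in Clock HFD hearts, against 0.50, 0.50, 0.49 and 0.50 in WT HFD hearts. It was at -0.57, -0.30, -0.35 and -0.32 in Clock SC hearts, against 0.72, 0.59, 1.01 and 0.30 in WT SC hearts. The groups were apart on both diets, as were those of 8.89% of all genes on HFD and 4.95% on SC. Nr1d1 fell by 1.04 ± 0.11 on each diet (limma adjusted p = 7.13e-05 on HFD and 0.000145 on SC). Of all genes, 0.771% were lower on HFD and 0.252% on SC. Nr1d2 fell by 1.45 ± 0.16 on HFD (7.86e-05) and by 1.13 ± 0.16 on SC (0.00225). Without WT SC replicate 4 the SC differences were -1.16 for Nr1d1 and -1.34 for Nr1d2. The activator gene Rora fell on HFD by 0.34 ± 0.05 (0.00134) and differed by -0.14 ± 0.05 on SC (0.301). Rorb did not pass, at 0.01 on HFD and 0.37 on SC.

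D-box clock genes are those clock components for which a D-box is described, and they overlap with the lists above. Of 7 measured, 4 fell in Clock hearts on HFD and none rose: Nr1d2, Per3, Nr1d1 and Rora. Of all genes, 0.771% were lower there. The median difference of the 7 was -0.34, where that of all genes was 0.00. On SC 3 fell, Nr1d2, Nr1d1 and Per3, where 0.252% of all genes were lower, and the median was -0.55. Without WT SC replicate 4 the count was again 3 and the median -0.72. Between the diets none of the 7 passed in Clock or in WT hearts.

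PAR bZIP-linked genes are detoxification and lipid genes described as dependent on these factors in mouse liver or kidney, and most did not pass in the heart. Of 22, 20 were measured, and Por and Cyp4a10 were not analysed here. On HFD 3 of the 20 fell in Clock hearts and none rose, where 0.771% of all genes were lower and 1.13% higher. On SC 2 fell, where 0.252% of all genes were lower. The median difference was -0.03 on HFD and -0.02 on SC, where that of all genes was 0.00 on both. Without WT SC replicates 2 and 4, the arrays with the highest SD over all values, 1 fell on SC.

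Ces1d, the carboxylesterase gene, was at -0.65, -0.56, -0.38 and -0.56 in Clock HFD hearts, against 1.90, 1.93, 2.24 and 1.98 in WT HFD hearts. It was at -0.36, -0.45, -0.44 and -0.47 in Clock SC hearts, against 1.37, 1.43, 1.63 and 0.36 in WT SC hearts. As with Dbp, all Clock hearts lay below all WT hearts, which was true of 0.311% of all genes, and WT SC replicate 4 was the lowest of the WT hearts. Ces1d fell by 2.55 ± 0.19 on HFD (limma adjusted p = 1.41e-06) and by 1.63 ± 0.19 on SC (0.000383). The SC difference was -1.91 without WT SC replicate 4. Between HFD and SC in WT hearts it differed by 0.81 (0.0724), and without WT SC replicate 4 by 0.54, which passed (0.0293).

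Of the glutathione transferase genes on the list, Gstt1 was at -0.29, -0.42, -0.36 and -0.26 in Clock HFD hearts, against 0.10, 0.37, 0.39 and 0.06 in WT HFD hearts. It was at -0.22, -0.33, -0.34 and -0.04 in Clock SC hearts, against 0.20, 0.25, 0.23 and 0.04 in WT SC hearts. The groups were apart on both diets, as were those of 8.89% of all genes on HFD and 4.95% on SC. Gstt1 fell by 0.57 ± 0.08 on HFD (limma adjusted p = 0.00134) and by 0.41 ± 0.08 on SC (0.0325), or by 0.46 without WT SC replicate 4 (0.0288). The SC call of Gstt1 was lost without any one of Clock SC replicates 1 to 3 and WT SC replicates 1 to 3 (adjusted p up to 0.113). Gsta3 fell on HFD by 0.39 ± 0.07 (0.00745) and differed by -0.11 ± 0.07 on SC (0.683). The 17 listed genes that did not pass on HFD differed by -0.46 (Cyp2b10) to 0.28 (Abcb1a), and the 18 that did not pass on SC by -0.20 (Acot2) to 0.26 (Elovl5). Averaged over the diets, 1 of the 20 measured rose and 3 fell, where 2.44% of all genes were higher and 1.44% lower. The one that rose was Elovl5, a fatty acid elongase gene, by 0.23 ± 0.06 (limma adjusted p = 0.0320), and by 0.24 without WT SC replicate 4 (0.0346); without WT SC replicates 2 and 4 together none of the 20 rose. Whether these genes have enough signal in heart to show a change cannot be read from centred values.

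**Figure D4:**
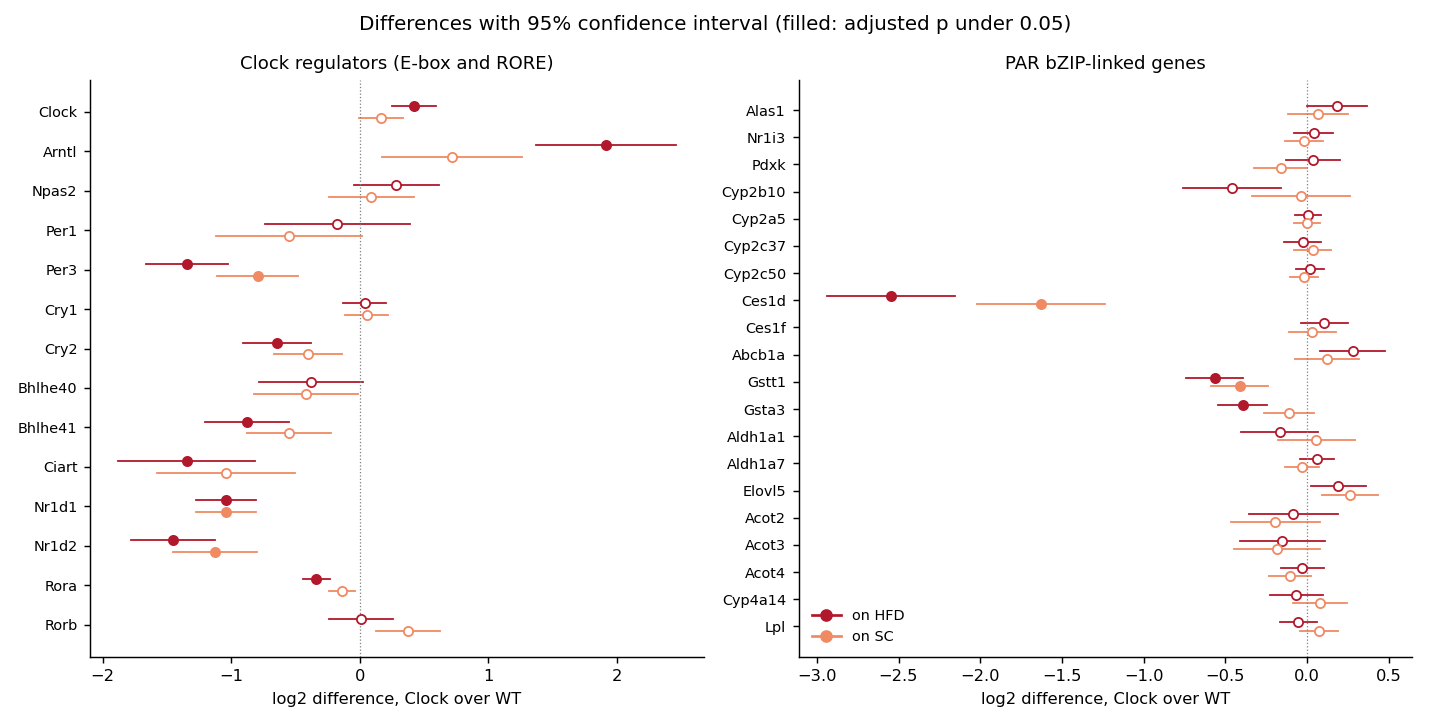
Log2 differences between Clock and WT hearts (horizontal axis) with 95% confidence intervals for the clock regulators (left) and the PAR bZIP-linked genes (right), on HFD and on SC, with filled points for adjusted p under 0.05. Ces1d, Gstt1 and Gsta3 are the linked genes that passed on HFD, and Nr1d1, Nr1d2 and Per3 the regulators that passed on both diets.

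C/EBP factors, leucine zipper proteins that bind related sites, did not pass in any of the 5 genes on either diet. Nfil3 is also induced by glucocorticoids and by acute stimulation, and lists of such genes were read beside it. Of 11 glucocorticoid-induced genes, 1 rose in Clock hearts on HFD (Cdkn1a, by 1.76, limma adjusted p = 0.000722) and none passed on SC. Of 17 immediate early genes, Egr2 rose (0.47, 0.0140) and Ier3 fell (-0.64, 0.00539) on HFD, and none passed on SC. Among all genes 1.13% were higher and 0.771% lower on HFD.

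The mean of the immediate early genes ran from -0.60 to 0.41 over the Clock HFD hearts, from -0.11 to 0.36 over the Clock SC hearts, from -0.79 to 0.05 over the WT HFD hearts and from -0.13 to 0.20 over the WT SC hearts. With this mean as a covariate the difference of Nfil3 on HFD was 0.57 and no longer passed (limma adjusted p = 0.0667), and the other members kept their calls there. The covariate differs between the groups compared, so it can take out part of a genotype difference, and its part in the result of Nfil3 was not tested further.

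Marker genes of the cells of the heart were read to see whether the mix of cells moved with the members. None of 12 cardiomyocyte, 10 fibroblast, 10 macrophage, 6 neutrophil, 11 lymphocyte and natural killer or 6 adipocyte markers passed between Clock and WT hearts on either diet. Of 10 endothelial markers, 3 rose in Clock hearts on HFD: Cldn5 (1.21, limma adjusted p = 0.000890), Robo4 (0.44, 0.0199) and Esam (0.39, 0.00707). In that comparison 1.13% of all genes were higher. Averaged over the diets, where 2.44% of all genes were higher and 1.44% lower, markers of 3 cell types passed. Of the fibroblast markers 4 of 10 rose in Clock hearts: Col1a1 by 0.30 (limma adjusted p = 0.0210), Postn by 0.28 (0.0266), Gsn by 0.28 (0.0111) and Lum by 0.27 (0.0251). Of the endothelial markers 5 of 10 rose, led by Cldn5 by 0.74 (0.00144) and Robo4 by 0.36 (0.00475). Of the cardiomyocyte markers Ryr2 rose by 0.17 (0.00698) and Myh7 fell by 0.61 (0.0215). These averaged counts were the same without WT SC replicate 4, but without WT SC replicates 2 and 4 together they came to 0 of 10 fibroblast markers, 2 of 10 endothelial markers and 1 of 12 cardiomyocyte markers, which was lower. In Clock SC over WT HFD hearts 6 of 10 endothelial markers rose, where 1.22% of all genes were higher. In Clock HFD over WT SC hearts 3 of 10 fibroblast markers rose, where 2.54% were higher, and 2 of 10 rose without WT SC replicate 4. The mean of the fibroblast markers lay between -0.08 and 0.26 in Clock HFD hearts, against -0.16 to 0.14 in WT HFD hearts. It lay between -0.02 and 0.10 in Clock SC hearts, against -0.24 to -0.07 in WT SC hearts, with no overlap on SC. The mean of the endothelial markers lay between -0.03 and 0.15 in Clock HFD hearts, against -0.26 to -0.18 in WT HFD hearts. It lay between 0.03 and 0.18 in Clock SC hearts, against -0.09 to 0.05 in WT SC hearts. The part of these markers in the differences of the 4 members was not tested. Centred values cannot show whether the markers of heart muscle are present at a high level.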

How the data were processed

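RNA of the myocardium of 16 mice, 4 in each of 4 groups, was read on 1 Affymetrix array per mouse, per the labels' protocols. For 34351 probe sets the authors deposited log2 values, centred so that the 16 values of a row have a median of 0 (within 5e-07). The background correction, summarisation and normalization were not given in the sources used here. The base and the sign were assumed. All 16 columns were matched to samples by name, and 0 columns belong to no sample.

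Probe sets with 1 gene symbol (23521) were averaged per gene (22180 genes, 1082 with several probe sets); those with several symbols (1814) or none listed (9016) entered only the fit of all probe sets. Checking gene IDs against RefSeq GRCm38.p6 changed 0 symbols and left 193 probe sets unmatched. The tests were those of limma 3.58.1, run under R 4.3.3 (lmFit, eBayes, 1 mean per group over all 16 arrays, 12 residual and 4.16 prior degrees of freedom), two-sided, with Benjamini-Hochberg adjustment over all genes and a threshold of adjusted p under 0.05. An error after ± is the standard error unless called SD. The number of arrays limits the precision. Correlations within a genotype used exact permutation tests in Python 3.11.15 with numpy 2.4.6 and pandas 2.3.3, and figures were drawn with matplotlib 3.10.9.

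The members and the gene lists (144 genes, 131 matched) were chosen with earlier results of these data known. The rule for names was the 4 members throughout, up to 4 passing members of a list with the largest change, any regulator of the E-box and RORE lists, and for likeness the 5 highest and 3 lowest genes without predicted genes; Cyp2b10, Abcb1a, Acot2, Elovl5 and Ces1d between diets were named after their values were seen. Other settings were each probe set alone, the probe set with the highest SD, eBayes with trend and robust, array weights, repeated quantile normalization, only the 8 arrays compared, a replicate block, an immediate early covariate, an exact permutation test and leaving out each array. No filter on dim probe sets was possible on a centred table. The script was tested on simulated data. Promoters are RefSeq windows of GRCm38.p6, and proteins were not compared.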

Additional observations from a re-analysis of the deposited data

Results flagged for a closer look

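In WT HFD hearts the Dbp value of replicate 1 (1.86) lay far below the other 3 (2.36 to 2.45) for a group of 4, although above every Clock heart. In Clock SC hearts the first Tef probe set was highest in replicate 4 (-0.043), apart from the other 3 (-0.20 to -0.19). Chance alone marks about 1 in 20 groups in this way. Replicate 4 of Clock SC also had the lowest array weight (0.656) and, of all arrays, correlated least with the rest of its group (mean 0.00508). WT SC replicate 4 was not marked by this rule in any member.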

How the results depend on the processing

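Over 36 results of the 4 members, 921 of 957 values under other settings kept direction and side of the threshold. With trend and robust eBayes the calls of Dbp were lost at unchanged values: adjusted p = 0.767 for Clock over WT on HFD (-2.73), 0.900 on SC (-2.05), 0.640 averaged over diets (-2.39), 0.803 for Clock HFD over WT SC (-2.01) and 0.818 for Clock SC over WT HFD (-2.76). Tef lost its calls on HFD (-0.35, 0.131) and averaged over diets (-0.25, 0.0785). The trend runs over means that are no levels here: Dbp has the highest mean of all genes (0.72) and a prior SD of 7.42, against 0.0863 without the trend, and with robust alone, chosen after seeing the data, Dbp on HFD had adjusted p = 5.58e-05. Read from probe set 17319524, Tef turned to 0.045 on HFD, 0.11 on SC, 0.075 averaged over diets and 0.17 for Clock HFD over WT SC, and was -0.018 for Clock SC over WT HFD (adjusted p = 0.978); the cause was not tested. With only the 8 arrays compared, which leaves fewer samples, Dbp on SC (-2.05) had adjusted p = 0.0600. With the immediate early covariate Nfil3 lost its calls on HFD (0.57, 0.0667) and for Clock SC over WT HFD (0.63, 0.0796). The exact permutation test, which is not adjusted over genes, put Nfil3 on SC (0.54), Tef for HFD over SC in WT (0.27) and Nfil3 for Clock HFD over WT SC (0.43) at p = 0.0286. Groups of 4 without overlap always reach that p.

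With each array left out in turn, the values ran from -0.39 to -0.32 for Tef on HFD, -0.56 to -0.43 for Hlf on HFD, 0.53 to 0.70 for Nfil3 on HFD and -0.58 to -0.45 for Hlf in Clock SC over WT HFD, each losing the call at least once with fewer samples. Tef averaged over genotypes ran from 0.14 to 0.21 and passed once, without Clock SC replicate 4 (0.0476). Uncalled values crossed 0 for HFD over SC in Clock in Dbp (-0.0084 to 0.076) and Hlf (-0.045 to 0.054) and for the interaction of Nfil3 (-0.0087 to 0.17).

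The number of genes called moved by over 1.5 times from 422 to as few as 241 on HFD, from 109 to as few as 38 on SC, and for HFD over SC from 20 to between 6 and 53 in Clock and from 78 to as few as 11 in WT. It was as low as 507 (861 as reported) averaged over diets, 104 (341) averaged over genotypes, 222 (891) for Clock HFD over WT SC and 252 (501) for Clock SC over WT HFD. The labels' replicate numbers are shared between groups, and deviations of same-numbered hearts correlated between -0.149 and 0.163. Such values cannot show whether same-numbered hearts shared a litter, cage or day. With the replicate block no call of a member changed (adjusted p = 0.000238 for Dbp, 0.0419 for Tef, 0.0298 for Hlf and 0.0343 for Nfil3 on HFD, 0.00353 for Dbp on SC), and HFD over SC called 12 genes in Clock and 41 in WT.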

Other observations

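Of the cell type lists, the erythroid markers gave 0 measured genes of 6. In WT hearts Egr2, an immediate early gene, differed between HFD and SC by -0.49 (limma adjusted p = 0.0341), and by -0.45 without WT SC replicate 4 (0.114). Cdkn1a, which encodes the cell cycle inhibitor p21, differed by -1.30 between the same groups (0.0245), and by -1.16 without that heart (0.0821). The endothelial tight junction gene Cldn5 differed by -0.81 there (0.0482), and by -0.87 without that heart (0.0815).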
